A study of Mus musculus with 12 samples.

Results

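Solute carriers of the kidney proximal tubule were followed as a set of 31 genes, chosen by symbol from a list of organic ion, amino acid and anion carriers. All 31 were found among the 55487 genes of the deposited table, and all 31 passed the filter on low counts that left 17890 genes for testing. Kidneys came from male mice with X-linked Alport syndrome, in which the collagen IV chain encoded by Col4a5 is defective and the glomerular basement membrane fails with age. Fed groups were a diet with fisetin, a plant flavonol, at 500 ppm (6 libraries) and a control diet (6 libraries), with Col4a5 in every sample title. All mice were on the B6 background and 30 weeks old, and each diet had 3 libraries in each of 2 batches. The genotype field reads HET for every library although the animals are described as male, so the allele carried is not stated here, and neither is the age at which the diets began. Kidneys of mice without the Alport mutation were not analysed here.

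The proximal tubule takes back most of the filtered amino acids, sugars, phosphate, sulfate, bicarbonate and vitamins, and it secretes organic anions and cations, drugs among them, from blood into urine. Carriers of the luminal brush border work in series with carriers of the basolateral membrane, and many are driven by the sodium gradient or by exchange against dicarboxylates and protons. Several are regulated by the transcription factor Hnf4a, and inherited loss of some causes disease, such as cystinuria for Slc3a1 and Slc7a9.

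Libraries held 16310197 to 24451812 counts, and the 31 carriers together took 0.637% to 1.03% of them. Levels of a gene across libraries are given as CPM, counts scaled to a common library total and by TMM, and levels of different genes are compared as the deposited FPKM, which are per length. The library fisetin 5 stood apart: the liver markers Alb, Apoa2 and Fgb with Cyp3a11 summed to 820.8 CPM there, against 14.41 to 22.07 CPM in the other fisetin libraries and 13.09 to 22.07 CPM in the control libraries. It also had the largest immune marker sum, whereas fisetin 6 had the smallest. Log2 fold changes of the carriers are therefore also given without fisetin 5 and without fisetin 6. Nothing in the labels says that libraries come from separate animals, so each p-value reflects only the variation among these samples, which may be technical. In whole-kidney RNA, fewer proximal tubule cells and less message per cell cannot be told apart.

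Most carriers had a lower mean level in fisetin kidneys, and none passed the test over all genes. The log2 fold change, fisetin over control, was negative for 28 of 31 carriers, with a median of -0.28 and a range of -1.14 to 0.55, against a median of 0.0008 over all genes tested, of which 49.8% were negative. In edgeR's quasi-likelihood fit, adjusted over all genes by Benjamini and Hochberg's method, 0 of 31 carriers and 0% of all genes had an adjusted p at or under 0.05. The smallest adjusted p was 0.197 among the carriers and 0.145 among all genes. At an unadjusted p under 0.05, 2 carriers were higher, where 8.23% of all genes were, and 6 were lower, where 6.34% of all genes were. The higher pair were the anion exchanger gene Slc26a6 and the sugar carrier gene Slc5a10, and the lower ones were Slc26a1, Slc6a18, Slc22a13, Slco4c1, Slc22a8 and Slc7a9.

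Other tools gave other counts on the same libraries. DESeq2 called 1 carrier, Slc26a6 (adjusted p = 0.00374), where it called 0.861% of all genes. It gave 9 carriers an unadjusted p under 0.05, and 2817 of the 17890 genes tested. Limma-voom with sample quality weights called 14 carriers, 13 lower and 1 higher, where it called 13.9% of all genes. Without fisetin 6, edgeR gave 18 carriers an unadjusted p under 0.05 and called Slc26a6 (adjusted p = 0.0112), with a median of -0.41 and 28 carriers negative. Without fisetin 5 the median was -0.17, 26 carriers were negative, and 8 had an unadjusted p under 0.05. The share of all genes at that level in the fits without fisetin 5 or fisetin 6 is not given here. Leaving out fisetin 5 changed the sign of a carrier's fold change or moved it by over 1.5 times for 19 carriers, and leaving out fisetin 6 for 14. No carrier had diet groups free of overlap, higher or lower, against 0.47% of all genes for higher and 0.425% for lower.

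**Figure D1:**
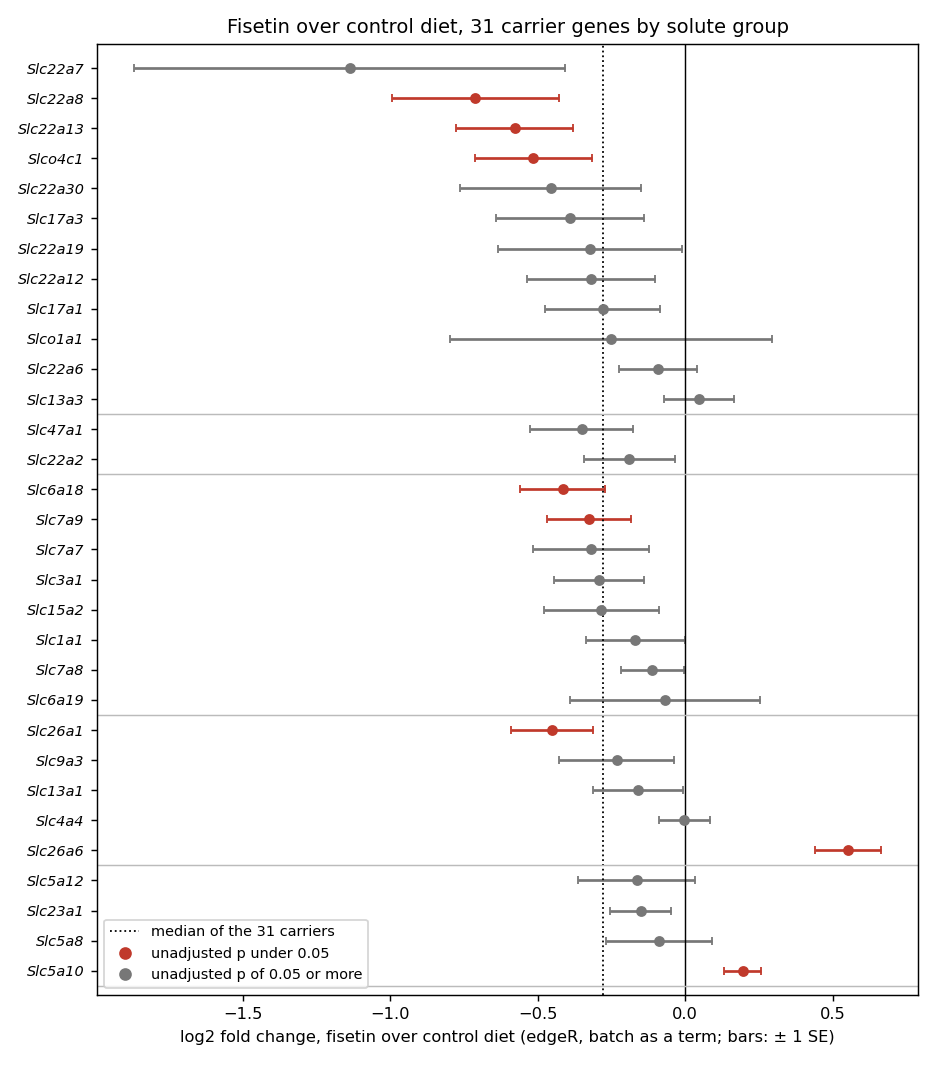
Fitted log2 fold change, fisetin over control diet, of each of the 31 carriers (points) with 1 standard error (bars), grouped by solute, with the dotted line at the carriers' median of -0.28. Carriers in red had an unadjusted p under 0.05 by edgeR; 28 points lie left of 0.

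Most carriers were high or low together in a given library, within both diets. Slc26a6, Slc5a10 and Slc15a2 were exceptions, each with a higher level in fisetin 5 than in most libraries of its diet. The summed level of the 31 carriers was 6033, 7586 and 11060 CPM (lowest, median and highest) in fisetin libraries, against 7072, 9095 and 10990 CPM in control libraries. The lowest sum was in fisetin 5 and the highest in fisetin 6, both on the same diet and in the same batch, so the range of the control diet lay inside that of fisetin. Fisetin 5 held the lowest level of 17 carriers, and fisetin 1 and control 1 that of 7 each. Fisetin 6 held the highest level of 10 carriers, control 4 of 14 and control 6 of 4. The median deviation from each carrier's own mean was -0.67 log2 units in fisetin 5, -0.48 in fisetin 1 and 0.47 in fisetin 6, against -0.25 in control 1 and 0.45 in control 4.

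The 20 proximal tubule markers that are not carriers, among them the endocytic receptor gene Lrp2, showed the same pattern. Their summed level was lowest in fisetin 5, at 12870 CPM, and reached 24720 CPM in fisetin 6, against 15060 to 25600 CPM in control libraries. Markers of immune cells ran the other way in these libraries, with 1284 CPM in fisetin 5 and 449.6 CPM in fisetin 6, against 478.1 to 898.4 CPM in control libraries. Their part in the carrier levels was not tested.

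**Figure D2:**
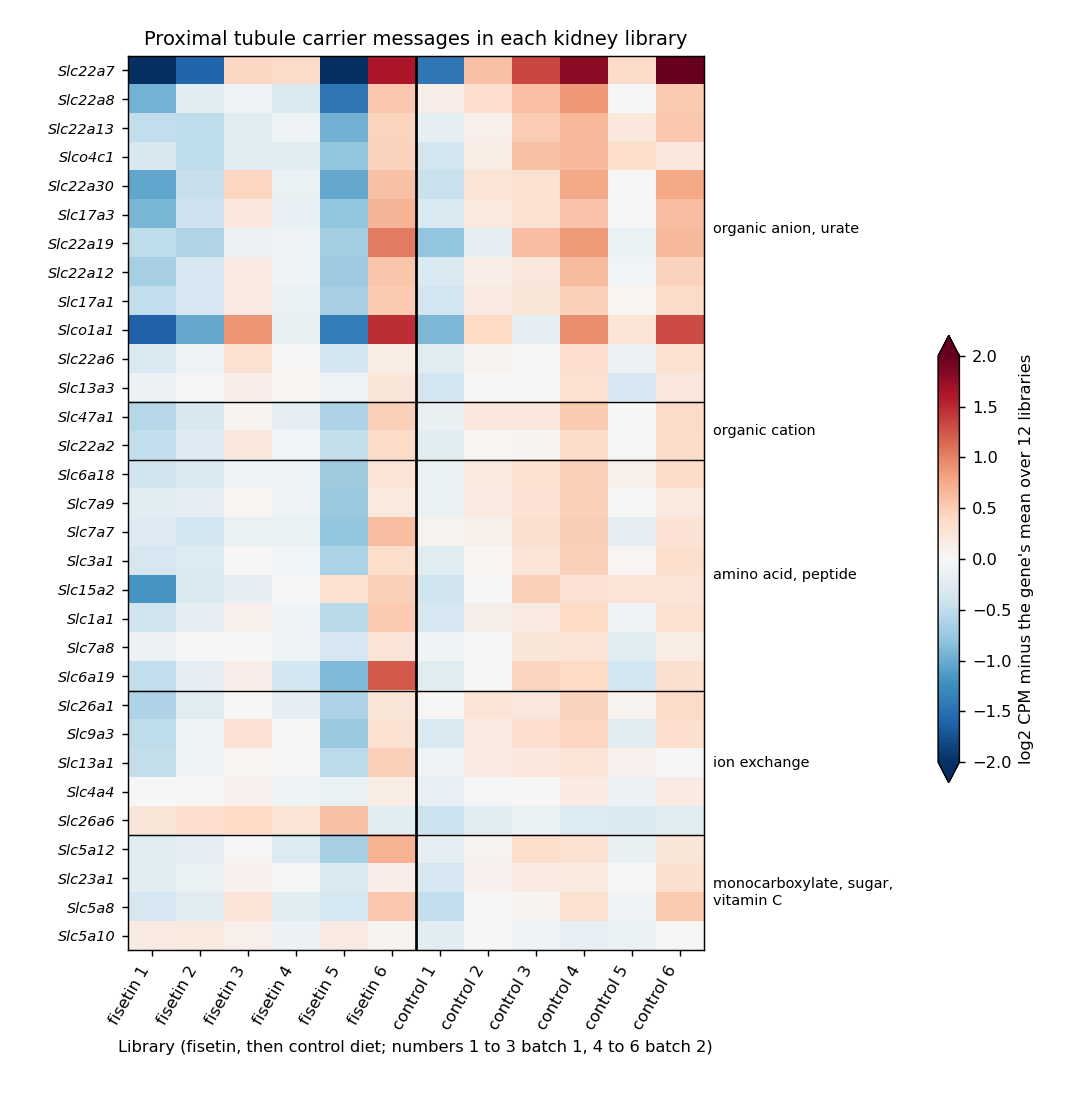
Level of each carrier (vertical axis, by solute group) in each of the 12 libraries (horizontal axis, fisetin left of control), as log2 CPM minus that gene's mean, on a colour scale that ends at -2 and 2. Fisetin 1 and fisetin 5 are blue for most carriers, fisetin 6, control 4 and control 6 are red, and Slc26a6 runs the other way.

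**Figure D3:**
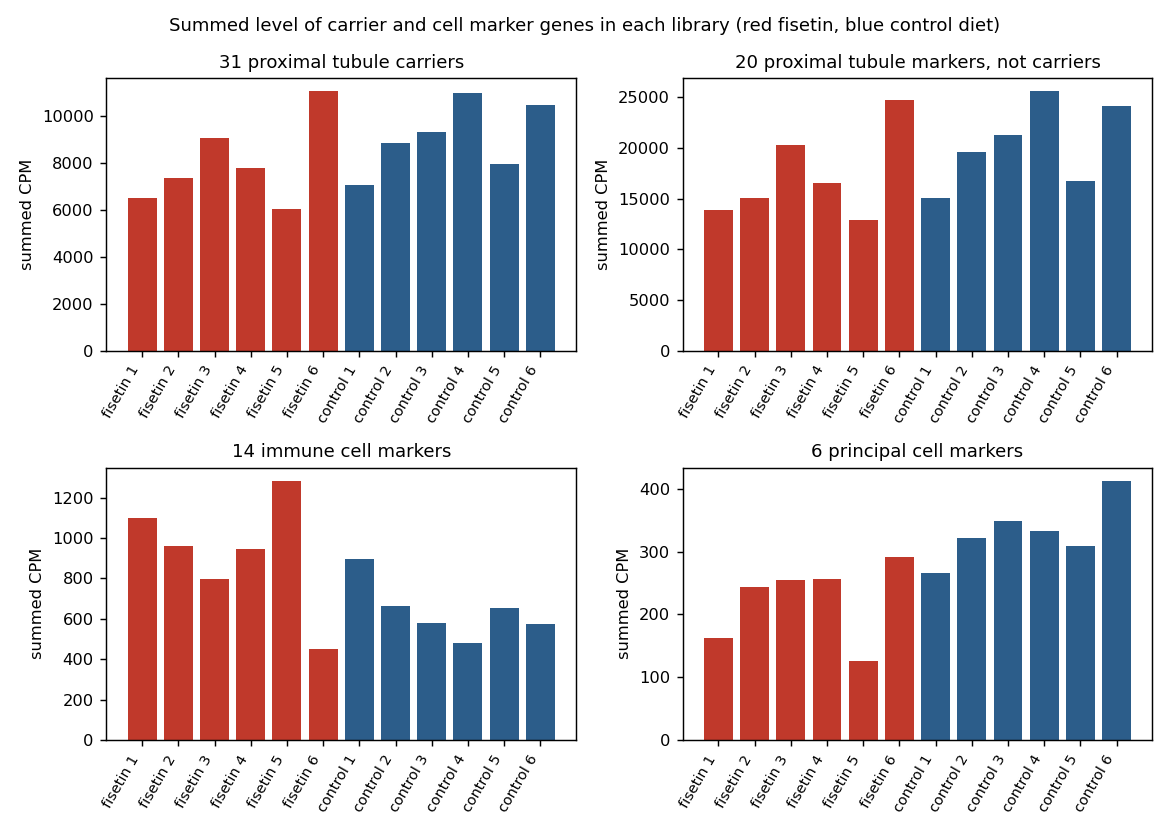
Summed CPM in each library (bars, red fisetin and blue control) of the 31 carriers and of 3 marker lists. Carriers and the other proximal tubule markers are lowest in fisetin 5, with 6033 and 12870 CPM, where immune markers are highest, with 1284 CPM.

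The spread between libraries was wider for the carriers than for most genes. The biological coefficient of variation fitted by edgeR had a median of 0.223 over the carriers and 0.131 over all genes tested, and 29 of 31 carriers lay above that all-gene median. Over the 20 proximal tubule markers that are not carriers, it ran from 0.124 for Anpep to 0.477 for Cyp4b1. A wide spread was thus not particular to the carriers. The highest library exceeded the lowest by 2.27-fold for the median carrier. The widest spread was that of Slc22a7, at 35.65-fold, and the narrowest were those of Slc4a4, at 1.26-fold, and Slc5a10, at 1.33-fold with the smallest coefficient of variation, 0.0928. By mean FPKM over all 12 libraries, the highest carriers were Slc22a12, Slc4a4 and Slc13a1, and the lowest were Slco4c1, Slc22a19 and Slc26a6, at 4.29, 9.61 and 10.64. The order of low carriers depended on diet: in fisetin libraries Slc22a7, at 8.19, was below Slc22a19, at 8.67, and Slc26a6, at 13.4.

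Among the 12 organic anion and urate carriers, 11 had a negative fold change, with a median of -0.36, and 3 of them an unadjusted p under 0.05. The basolateral exchangers Slc22a6 (OAT1) and Slc22a8 (OAT3) bring organic anions and many drugs from blood into the cell, and they are neighbours on mouse chromosome 19, 6203 bases apart with no protein-coding gene between them. Slc22a8 spans chr19:8591254-8611835 and Slc22a6 chr19:8618039-8628299, both on the plus strand (GENCODE M21, GRCm38). Slc22a8 had 86.5, 195.7 and 339.1 CPM (lowest, median and highest) in fisetin libraries, against 228.1, 314.4 and 422.5 CPM in control libraries. Of the 6 fisetin libraries, 5 lay below every control library, and fisetin 6 lay among them. Its log2 fold change was -0.71 ± 0.28 (SE; unadjusted p = 0.0286, edgeR adjusted p = 0.313), at -0.75 in batch 1 and -0.68 in batch 2, and -0.55 without fisetin 5 and -0.96 without fisetin 6. Slc22a6 had 559.8, 713.0 and 897.4 CPM in fisetin libraries, against 615.7, 739.1 and 917.9 CPM in control libraries. The diets overlapped for Slc22a6 over most of their range (log2 fold change -0.09 ± 0.13, edgeR adjusted p = 0.738), and batch 1 alone gave 0.05. It was -0.01 without fisetin 5 and -0.12 without fisetin 6.

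The RefSeq promoters of these neighbours are shown because the genes lie side by side and had unlike diet differences. Each runs from 250 bases before to 50 after the RefSeq start site, on GRCm38.p6. That site can differ from the GENCODE gene start, and the Slc22a8 window lies inside the GENCODE span given above. Neither holds the HNF4 motif CAAAGTCCA (or TGGACTTTG on the other strand), so no base is in capitals.
Slc22a8, chr19:8592932-8593231, plus strand: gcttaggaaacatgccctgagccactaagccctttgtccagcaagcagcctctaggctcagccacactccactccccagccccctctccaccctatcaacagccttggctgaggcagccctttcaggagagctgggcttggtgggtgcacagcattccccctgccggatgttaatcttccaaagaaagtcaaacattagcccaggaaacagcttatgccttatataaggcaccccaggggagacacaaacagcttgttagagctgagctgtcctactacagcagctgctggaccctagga
Slc22a6, chr19:8617746-8618045, plus strand: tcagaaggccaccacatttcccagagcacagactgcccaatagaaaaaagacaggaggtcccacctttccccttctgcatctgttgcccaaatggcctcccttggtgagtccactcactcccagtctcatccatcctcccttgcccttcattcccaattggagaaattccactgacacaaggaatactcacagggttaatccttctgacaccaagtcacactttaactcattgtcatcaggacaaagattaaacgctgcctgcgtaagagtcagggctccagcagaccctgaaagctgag

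Slc22a7, another organic anion carrier, had the largest negative fold change and the widest spread. It had 1.63, 4.49, 17.9, 17.4, 2.27 and 41.3 CPM in fisetin 1 to 6, against 4.96, 20.1, 33.9, 46.1, 17.6 and 58.2 CPM in control 1 to 6. Each diet thus held both very low and high libraries, with 3 fisetin libraries below every control. This gave a log2 fold change of -1.14 ± 0.73 (SE; edgeR adjusted p = 0.448), at -0.89 without fisetin 5 and -1.62 without fisetin 6. Slco4c1, a basolateral carrier that in humans takes up digoxin and thyroid hormone, had the lowest FPKM of the set, 3.59 ± 0.93 in fisetin libraries and 4.998 ± 1.08 in control libraries (SD, n = 6 each). Its CPM were 11.04, 15.7 and 26.2 (lowest, median and highest) in fisetin libraries, against 14.8, 23.3 and 29.9 in control libraries, and 2 fisetin libraries lay below every control. The log2 fold change was -0.52 ± 0.20 (SE; unadjusted p = 0.0243, edgeR adjusted p = 0.305), at -0.40 without fisetin 5 and -0.68 without fisetin 6. The antisense gene Panct2 lies over Slco4c1, and the strand setting of the counting is not given in the sources used here, so their reads cannot be told apart. Slc13a3, which imports the dicarboxylates that the anion exchangers trade, had 497.3 to 640.7 CPM in fisetin libraries and 416.9 to 672.6 CPM in control libraries. Its fold change of 0.05 ± 0.12 was the only positive one among the organic anion carriers and had an edgeR adjusted p of 0.86. It was 0.09 without fisetin 5 and 0.01 without fisetin 6, and its sign was negative in batch 2 alone.

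Luminal carriers of urate and organic anions had lower fisetin means throughout, and only Slc22a13 had an unadjusted p under 0.05. Slc22a12 (URAT1), which reabsorbs urate, had the highest FPKM of the set, 451.3 ± 136.2 in fisetin libraries and 550.8 ± 104.7 in control libraries (SD, n = 6 each). Its CPM were 540.4, 782.0 and 1310 (lowest, median and highest) in fisetin libraries, against 725.5, 1013 and 1389 in control libraries, with 3 fisetin libraries below every control. This gave a log2 fold change of -0.32 ± 0.22 (SE; edgeR adjusted p = 0.463), which was -0.20 without fisetin 5 and -0.48 without fisetin 6, where its unadjusted p was 0.0381. Slc22a13, a luminal carrier of urate and nicotinate, had 18.7, 28.4 and 49.6 CPM in fisetin libraries, against 31.9, 47.0 and 57.5 CPM in control libraries. Of the fisetin libraries 4 lay below every control, and the log2 fold change was -0.58 ± 0.20 (SE; unadjusted p = 0.0138, edgeR adjusted p = 0.291), at -0.58 in each batch, and -0.45 without fisetin 5 and -0.74 without fisetin 6. The gene Slc22a14 overlaps it on the same strand and may share its reads. Slc22a12 is overlapped by Nrxn2 on the other strand.

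Slc22a19, a mouse organic anion carrier with close relatives on chromosome 19, had 9.47, 12.5 and 31.6 CPM in fisetin libraries, against 8.87, 18.8 and 27.9 CPM in control libraries, so each diet had libraries at both ends. Its fold change was -0.32 ± 0.31 (edgeR adjusted p = 0.605), and that of its relative Slc22a30 was -0.46 ± 0.31 (adjusted p = 0.463). The fold change of Slc22a19 was -0.19 without fisetin 5, -0.12 without control 3 and -0.61 without fisetin 6 (unadjusted p = 0.0494). That of Slc22a30 was -0.30 without fisetin 5 and -0.64 without fisetin 6, and -0.69 without fisetin 3. Counting could split reads between such relatives. The neighbouring genes Slc17a1 and Slc17a3, which encode luminal urate and anion carriers and lie 7033 bases apart on chromosome 13, had fold changes of -0.28 ± 0.20 and -0.39 ± 0.25. Slc17a1 was at -0.17 without fisetin 5 and -0.43 without fisetin 6, and Slc17a3 at -0.26 without fisetin 5 and -0.60 without fisetin 6. Slco1a1, which carries steroid conjugates in rodents, had the second widest spread, 34.8 to 295.9 CPM in fisetin libraries and 57.2 to 264.2 CPM in control libraries. Its fold change of -0.25 ± 0.55 was within its error, and it was -0.03 without fisetin 5, -0.68 without fisetin 6 and -0.76 without fisetin 3.

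Both organic cation carriers had negative fold changes, and neither had an unadjusted p under 0.05. Slc22a2 (OCT2) brings organic cations in from blood and Slc47a1 (MATE1) passes them to urine in exchange for protons. Slc22a2 had 133.8, 169.5 and 245.6 CPM (lowest, median and highest) in fisetin libraries, against 163.2, 194.1 and 246.0 CPM in control libraries (log2 fold change -0.19 ± 0.15). This was -0.10 without fisetin 5 and -0.29 without fisetin 6. Slc47a1 had 240.5, 309.7 and 510.5 CPM in fisetin libraries, against 334.0, 426.0 and 527.4 CPM in control libraries, and 4 fisetin libraries lay below every control. Its log2 fold change was -0.35 ± 0.17 (SE; edgeR adjusted p = 0.363), and -0.25 without fisetin 5 and -0.50 without fisetin 6.

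All 8 amino acid and peptide carriers had negative fold changes, with a median of -0.29, and 2 had an unadjusted p under 0.05. Slc6a18 and Slc6a19 are luminal sodium-driven carriers of neutral amino acids, 1721 bases apart on chromosome 13. Slc6a18 had 173.7, 247.8 and 340.9 CPM (lowest, median and highest) in fisetin libraries, against 258.1, 336.3 and 394.3 CPM in control libraries. The diets overlapped, with 3 fisetin libraries below every control, and the log2 fold change was -0.42 ± 0.14 (SE; unadjusted p = 0.0137, edgeR adjusted p = 0.291). It was -0.31 without fisetin 5 and -0.52 without fisetin 6. Slc6a19, mutated in Hartnup disorder, had 79.8, 121.2 and 343.3 CPM in fisetin libraries, against 114.4, 165.9 and 200.6 CPM in control libraries. Fisetin 6 alone stood above every control, and 3 fisetin libraries stood below them all. The log2 fold change of Slc6a19 was -0.07 ± 0.32, at 0.13 in batch 2, and 0.07 without fisetin 5 and -0.48 without fisetin 6. An antisense gene, Slc6a19os, lies over it.

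Slc7a9 and Slc3a1 encode the light and heavy chains of the luminal exchanger for cystine and basic amino acids. Slc7a9 had 39.4, 59.4 and 75.3 CPM in fisetin libraries, against 59.99, 74.6 and 90.9 CPM in control libraries. Of the fisetin libraries 3 lay below every control, and the log2 fold change was -0.33 ± 0.14 (SE; unadjusted p = 0.0421, edgeR adjusted p = 0.329). It was -0.22 without fisetin 5 and -0.41 without fisetin 6. Slc3a1 had 229.7, 318.4 and 454.3 CPM in fisetin libraries, against 300.6, 397.6 and 498.6 CPM in control libraries, again with 3 fisetin libraries below every control (log2 fold change -0.29 ± 0.15, edgeR adjusted p = 0.377). Slc3a1 was at -0.19 without fisetin 5 and -0.40 without fisetin 6. Prepl overlaps Slc3a1 on the other strand. The Slc3a1 promoter is shown because it was the only carrier promoter found with the HNF4 motif, which stands in capitals ahead of the start site.
Slc3a1, chr17:85028097-85028396, plus strand, GRCm38.p6: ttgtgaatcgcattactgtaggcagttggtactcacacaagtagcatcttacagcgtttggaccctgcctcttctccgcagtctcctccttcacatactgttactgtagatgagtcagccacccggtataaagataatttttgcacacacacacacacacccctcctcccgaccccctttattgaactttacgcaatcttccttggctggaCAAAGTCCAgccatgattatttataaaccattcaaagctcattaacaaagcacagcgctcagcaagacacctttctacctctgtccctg

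The other amino acid carriers had smaller differences or wider spreads. Slc7a7, the basolateral exchanger lost in lysinuric protein intolerance, had a fold change of -0.32 ± 0.20, with -0.20 without fisetin 5 and -0.52 without fisetin 6. Slc7a8, a basolateral exchanger of neutral amino acids, had one of -0.11 ± 0.11, with -0.05 without fisetin 5 and -0.19 without fisetin 6. Oxa1l overlaps Slc7a7 on the other strand. The glutamate carrier gene Slc1a1 was at -0.17 ± 0.17, with -0.07 without fisetin 5 and -0.31 without fisetin 6. Slc15a2, a luminal carrier of small peptides and peptide-like drugs, had 25.2, 46.3, 49.6, 55.7, 70.3 and 78.8 CPM in fisetin 1 to 6, against 43.0, 57.0, 79.0, 69.6, 68.9 and 67.6 CPM in control 1 to 6. It was among the higher values in fisetin 5, where most carriers were lowest, and its fold change was -0.28 ± 0.19 (edgeR adjusted p = 0.468), with -0.32 without fisetin 5 and -0.37 without fisetin 6.

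The ion carriers held both the carrier with the smallest p, which was higher in fisetin kidneys, and carriers that hardly differed. Slc26a6 encodes a luminal exchanger of chloride for oxalate, formate or bicarbonate, which limits oxalate stones in mice, and spans chr9:108853283-108913049 on the plus strand. It had 11.9, 12.6, 13.2, 12.1, 14.99 and 8.67 CPM in fisetin 1 to 6, against 7.44, 8.54, 9.10, 8.27, 8.23 and 8.46 CPM in control 1 to 6. Of the fisetin libraries 5 lay above every control, and fisetin 6 lay within the control range. Its log2 fold change was 0.55 ± 0.11 (SE; unadjusted p = 0.000342, edgeR adjusted p = 0.197), at 0.59 in batch 1 and 0.52 in batch 2, and its unadjusted p was under 0.05 in all 12 fits that left out a library. Its highest level was in fisetin 5, with the largest immune and liver marker sums, and its lowest fisetin level was in fisetin 6, with the smallest immune marker sum. The part of these in its difference was not tested, and its fold change was 0.47 without fisetin 5 and 0.64 without fisetin 6. With an FPKM of 13.4 ± 2.76 in fisetin libraries and 7.868 ± 1.121 in control libraries (SD, n = 6 each), its level in control libraries was the lowest but for Slco4c1. Its promoter, shown as that of the carrier with the smallest p, did not hold that motif. The window is set by a RefSeq start site and lies inside the GENCODE span given above.
Slc26a6, chr9:108853793-108854092, plus strand, GRCm38.p6: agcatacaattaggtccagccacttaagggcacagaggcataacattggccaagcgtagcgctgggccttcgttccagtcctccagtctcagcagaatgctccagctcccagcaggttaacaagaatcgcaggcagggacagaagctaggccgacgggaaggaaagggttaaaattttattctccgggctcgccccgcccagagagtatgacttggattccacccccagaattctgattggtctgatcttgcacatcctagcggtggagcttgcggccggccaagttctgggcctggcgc

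Slc26a1, the basolateral exchanger of sulfate and oxalate, lay in the other direction. It had 85.1, 110.3, 128.9, 114.3, 85.2 and 153.4 CPM in fisetin 1 to 6, against 131.6, 157.6, 152.5, 178.3, 136.8 and 169.3 CPM in control 1 to 6. Again 5 fisetin libraries lay apart, below every control, and fisetin 6 lay among the controls. Its log2 fold change was -0.45 ± 0.14 (SE; unadjusted p = 0.00724, edgeR adjusted p = 0.281), at -0.45 in batch 1 and -0.46 in batch 2, and -0.37 without fisetin 5 and -0.56 without fisetin 6. Idua overlaps Slc26a1 on the other strand. The luminal sulfate carrier gene Slc13a1, next by FPKM after Slc22a12 and Slc4a4 with 220.3 ± 47.7 in fisetin libraries and 240.7 ± 21.4 in control libraries (SD, n = 6 each), had 352.6, 492.5 and 712.7 CPM in fisetin libraries, against 473.8, 556.8 and 606.4 CPM in control libraries. Its fold change was -0.16 ± 0.15 (edgeR adjusted p = 0.597), with fisetin libraries at both ends. It was -0.07 without fisetin 5 and -0.30 without fisetin 6.

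Slc4a4, the basolateral sodium bicarbonate cotransporter, had the narrowest range of the 31, with an FPKM of 347.0 ± 21.2 in fisetin libraries and 343.7 ± 20.1 in control libraries (SD, n = 6 each). Its CPM were 1405, 1544 and 1716 (lowest, median and highest) in fisetin libraries, against 1378, 1522 and 1739 in control libraries. The log2 fold change was -0.003 ± 0.085 (edgeR adjusted p = 0.989), and its sign was positive with total count scaling (0.04), on log2(TPM + 1) (0.05) and without fisetin 5 (0.03). Slc9a3 (NHE3), the luminal sodium proton exchanger that works with it in bicarbonate recovery, had 52.7, 84.5 and 108.4 CPM in fisetin libraries, against 71.2, 104.6 and 118.8 CPM in control libraries (log2 fold change -0.23 ± 0.20). This was -0.12 without fisetin 5 and -0.33 without fisetin 6.

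Of the 4 carriers of monocarboxylates, sugars and vitamin C, Slc5a10 was higher in fisetin kidneys and the others had negative fold changes. Slc5a10, a luminal sodium-driven carrier of mannose and fructose, had 171.5, 174.8, 164.0, 141.9, 174.4 and 159.9 CPM in fisetin 1 to 6, against 131.5, 153.3, 143.7, 136.8, 139.7 and 156.3 CPM in control 1 to 6. Of the fisetin libraries 5 lay above every control, by a small margin, and fisetin 4 lay within the control range. This gave a log2 fold change of 0.19 ± 0.06 (SE; unadjusted p = 0.00891, edgeR adjusted p = 0.281), at 0.25 in batch 1 and 0.14 in batch 2, and 0.17 without fisetin 5 and 0.20 without fisetin 6. Grap and Fam83g overlap Slc5a10 on the other strand. The lactate carriers Slc5a8 and Slc5a12 were at -0.09 ± 0.18 and -0.17 ± 0.20, and Slc5a8 at 0.04 in batch 1 alone. Slc5a8 was at -0.0007 without fisetin 5 and -0.22 without fisetin 6, and Slc5a12 at -0.06 without fisetin 5 and -0.39 without fisetin 6. Slc23a1, which takes vitamin C back, had 129.1 to 173.5 CPM in fisetin libraries and 124.5 to 197.5 CPM in control libraries (log2 fold change -0.15 ± 0.10, with -0.09 without fisetin 5 and -0.19 without fisetin 6), and Paip2 overlaps it on the other strand.

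**Figure D4:**
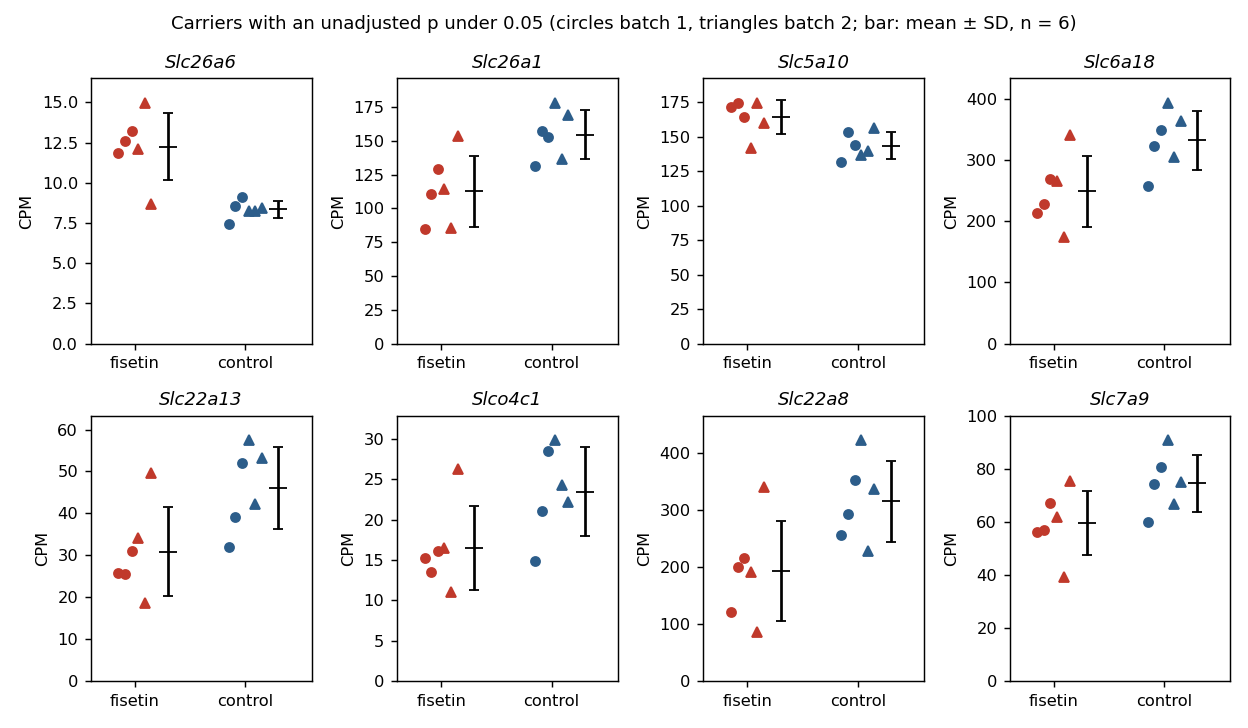
CPM of the 8 carriers with an unadjusted p under 0.05 in each library (circles batch 1, triangles batch 2), with the mean and SD of 6 libraries beside each diet. Slc26a6 and Slc5a10 have 5 of 6 fisetin libraries above every control, and Slc26a1 and Slc22a8 have 5 of 6 below.

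Ratios of carriers within a library show which members kept pace with each other while the whole set went up and down. The pairs are neighbours on a chromosome, functional partners or, for Slc26a6 and Slc26a1, members of a gene family on different chromosomes. They were chosen after their values were seen, so the ratios are given with no test. Slc7a9 over Slc3a1 was 0.183 ± 0.0125 in fisetin libraries and 0.187 ± 0.0135 in control libraries (SD, n = 6 each), and it differed by no more than 1.22-fold between any libraries. The chains of the cystine exchanger thus kept a near constant ratio of messages in both diets. By batch, the ratio was 0.187 to 0.202 in batch 1 and 0.165 to 0.183 in batch 2, without overlap. Slc17a3 over Slc17a1 was 0.996 ± 0.127 in fisetin libraries and 1.1 ± 0.0729 in control libraries. It had 4 fisetin libraries below every control and differed by up to 1.57-fold between libraries. Slc47a1 over Slc22a2 was 1.85 ± 0.123 in fisetin libraries and 2.08 ± 0.117 in control libraries. Its range over libraries was narrow, at 1.26-fold, yet 5 fisetin libraries lay below every control.

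Other pairs parted. Slc22a8 over its neighbour Slc22a6 was 0.262 ± 0.091 in fisetin libraries and 0.411 ± 0.0565 in control libraries, with 5 of 6 fisetin libraries below every control and fisetin 6 at 0.42. Slc26a6 over Slc26a1 was 0.116 ± 0.04 in fisetin libraries and 0.0545 ± 0.00548 in control libraries, with 5 of 6 fisetin libraries above every control and fisetin 6 at 0.0565. Slc6a18 over its neighbour Slc6a19 was 1.83 ± 0.479 in fisetin libraries and 2.12 ± 0.306 in control libraries. Only 2 fisetin libraries lay below every control, and fisetin 6, at 0.993, was the library apart.

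**Figure D5:**
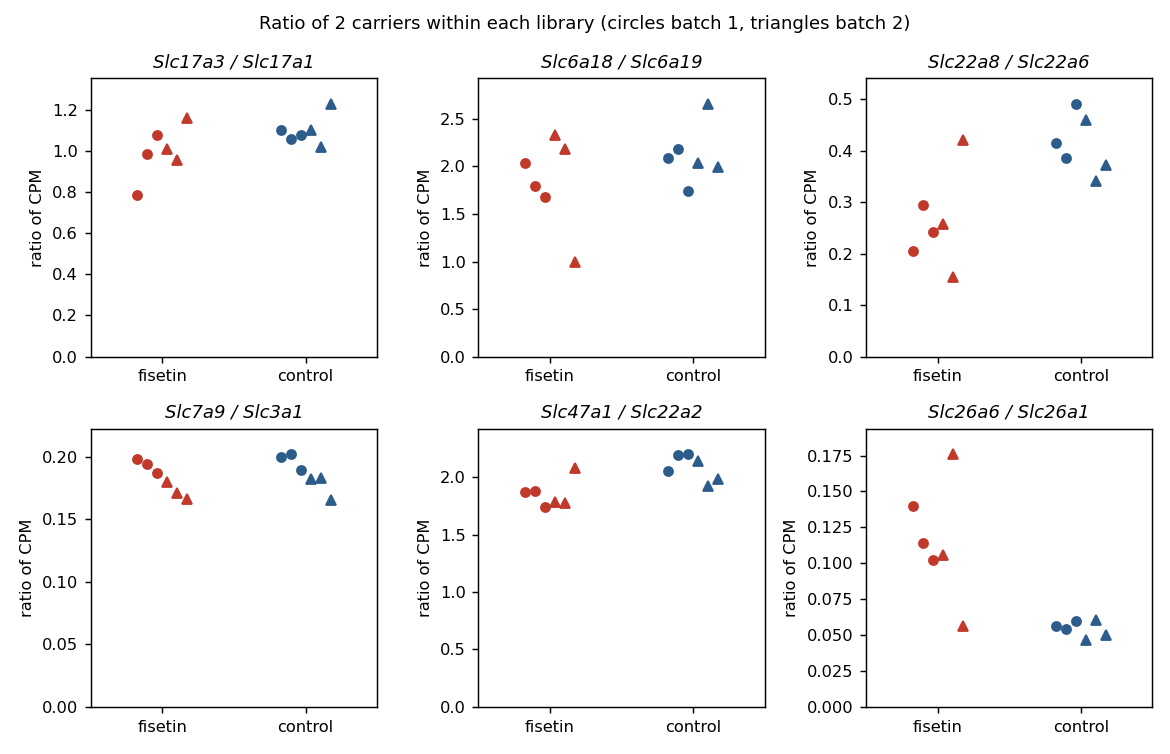
Ratio of CPM of 2 carriers within each library (circles batch 1, triangles batch 2), fisetin left of control. Slc7a9 over Slc3a1 stays between 0.165 and 0.202, while Slc22a8 over Slc22a6 is below every control in 5 of 6 fisetin libraries and Slc26a6 over Slc26a1 above every control in 5 of 6.

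Differences by diet had the same sign in both batches for 26 of 31 carriers. Batch 1 gave a median of -0.25 with 25 carriers negative, and batch 2 a median of -0.27 with 28 negative. For the interaction of diet and batch, 0 of 31 carriers had an unadjusted p under 0.05, where 2.1% of all genes did, and the smallest was 0.159, for Slc15a2 (edgeR adjusted p = 1). Slc15a2 was also the only carrier higher in batch 2 than in batch 1 at an unadjusted p under 0.05 (log2 0.48, unadjusted p = 0.0307, edgeR adjusted p = 0.892), where 1.44% of all genes were. By sign, 29 of 31 carriers were higher in batch 2, with a median of 0.20 against 0.0014 over all genes, and none passed the adjusted test. Without fisetin 6, a batch 2 library, 22 of 31 were higher in batch 2, with a median of 0.08, and 0 had an unadjusted p under 0.05. Without fisetin 5, also of batch 2, 29 were higher with a median of 0.30, and 6 of them reached that level. The share of all genes at that level in these fits is not given here, and 0 genes passed the adjusted test in either.

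A list of other carriers, not matched to the set by solute, gave a weaker picture. Of 28 listed, 24 passed the filter, 15 with a negative and 9 with a positive fold change, and the median was -0.13. An unadjusted p under 0.05 was reached by 2, both higher. They were Slc6a20a, a proline carrier, at 25.9 ± 3.58 CPM in fisetin libraries and 22.6 ± 1.15 CPM in control libraries (SD, n = 6 each), and Abcc2, a luminal efflux pump for conjugates, at 717.2 ± 96.4 CPM in fisetin libraries and 619.1 ± 40.02 CPM in control libraries. Their log2 fold changes were 0.19 ± 0.08 and 0.21 ± 0.09, and 0 of the 24 passed the edgeR test over all genes. Without fisetin 5, 0 had an unadjusted p under 0.05; without fisetin 6, 2 higher and 12 lower ones did.

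Among 16 partners, scaffolds and regulators of the carriers, 13 had a negative fold change, and 3 of them an unadjusted p under 0.05. Slc9a3r1, whose product anchors carriers in the brush border, had 134.6, 173.5 and 221.8 CPM (lowest, median and highest) in fisetin libraries, against 182.1, 221.5 and 243.5 CPM in control libraries (log2 fold change -0.30 ± 0.12, edgeR adjusted p = 0.312). Of the fisetin libraries, 4 lay below every control. Hnf4a, the transcription factor gene, was at -0.18 ± 0.15, with -0.07 without fisetin 5 and -0.27 without fisetin 6. Cltrn, listed as Tmem27, whose product carries Slc6a19 to the brush border, was at -0.41 ± 0.24. Of the 16, 1 was lower at an unadjusted p under 0.05 without fisetin 5 and 5 were without fisetin 6.

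Of the 20 proximal tubule markers that are not carriers, 18 had a negative fold change, 3 of them with an unadjusted p under 0.05, and 1 was higher at that level. The water channel gene Aqp1 was at 393.0 ± 47.0 CPM in fisetin libraries and 474.2 ± 69.8 CPM in control libraries (SD, n = 6 each; log2 fold change -0.27 ± 0.11, edgeR adjusted p = 0.31). Pck1, of gluconeogenesis, stood on the other side, with 1002, 2498 and 2779 CPM (lowest, median and highest) in fisetin libraries, against 1100, 1257 and 1698 CPM in control libraries. Like Slc26a6, Pck1 was above every control in 5 of 6 fisetin libraries. In fisetin 6, at 1002 CPM, it was below every control, whereas Slc26a6 there was within the control range. The log2 fold change of Pck1 was 0.77 ± 0.21 (edgeR adjusted p = 0.267, DESeq2 adjusted p = 0.0277), and 0.68 without fisetin 5 and 0.94 without fisetin 6. Lower markers at an unadjusted p under 0.05 numbered 2 without fisetin 5 and 14 without fisetin 6.

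Markers of other nephron segments were also lower more often than higher. Principal cell markers of the collecting duct were negative in 6 of 6, each with an unadjusted p under 0.05, and summed to 124.9 to 291.4 CPM in fisetin libraries and 266.0 to 412.9 CPM in control libraries. Fxyd4, a subunit of the sodium pump complex, was at -0.54 ± 0.15, and the sodium channel gene Scnn1g at -0.47 ± 0.14. Thick ascending limb markers were negative in 6 of 6, with the potassium channel gene Kcnj1 at -0.26 ± 0.18, and 0 had an unadjusted p under 0.05. Their sums were 2409 to 4393 CPM in fisetin libraries and 2412 to 4984 CPM in control libraries. Distal convoluted tubule markers were negative in 2 of 3 tested, with Trpm6 at 0.22 ± 0.08 and Slc12a3 at -0.59 ± 0.37. At an unadjusted p under 0.05, Trpm6 was higher and 0 were lower, and without fisetin 6, Trpm6 was higher and 2 were lower. Their sums were 274.9 to 1210 CPM in fisetin libraries and 544.1 to 1083 CPM in control libraries. Intercalated cell markers were negative in 3 of 5, with Slc26a4 at -0.52 ± 0.32 and Aqp6 at 0.20 ± 0.13, and sums of 67.6 to 172.9 CPM in fisetin libraries and 88.1 to 138.7 CPM in control libraries. Intercalated cell markers were negative in 2 of 5 without fisetin 5 and in 4 of 5 without fisetin 6. All 6 principal cell markers were lower at an unadjusted p under 0.05 without fisetin 5 and without fisetin 6.

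Immune, podocyte, tubule injury and liver markers are given beside these. Immune cell markers were positive in 14 of 14, with 6 at an unadjusted p under 0.05 and a median of 0.66; 3 were at that level without fisetin 5 and 11 without fisetin 6. Their sums were 449.6 to 1284 CPM in fisetin libraries and 478.1 to 898.4 CPM in control libraries, with Ptprc at 0.73 ± 0.25 and Itgax at 0.51 ± 0.18. Podocyte markers were negative in 4 of 5, with Podxl at -0.13 ± 0.12, and sums of 467.5 to 734.6 CPM in fisetin libraries and 582.4 to 692.7 CPM in control libraries. Tubule injury markers were positive in 4 of 8, with Cp at 0.30 ± 0.15 and Sox9 at 0.35 ± 0.24, and summed to 591.1 to 1109 CPM in fisetin libraries and 745.8 to 1133 CPM in control libraries. Liver markers were positive in 3 of 3 tested, with Alb at 3.07 ± 1.97 and Apoa2 at 1.57 ± 0.85, and Alb had 737.2 CPM in fisetin 5 and at most 5.48 CPM in any other library. Without fisetin 5, Alb was at -0.44 and Apoa2 at 0.02. Podocyte markers were negative in 3 of 5 without fisetin 5 and in 5 of 5 without fisetin 6, and injury markers were positive in 4 of 8 and in 6 of 8. Neither list had a marker with an unadjusted p under 0.05 with all libraries or without fisetin 5. Without fisetin 6, 3 podocyte markers were lower and 4 injury markers were higher at that level. In none of these lists was a marker at 0 in all libraries, 0 markers passed the edgeR test over all genes, and their part in the carrier differences was not tested.

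RefSeq promoters were found for 25 of the 31 carriers, in 34 windows of 300 bases. The HNF4 motif was in 1 window, or 2.94%, against 0.475% of 32851 promoters of all genes, on either strand. A match or its lack in these windows says nothing of binding.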

How the data were processed

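Kidney RNA was measured in 12 libraries with the KAPA mRNA HyperPrep kit, per the labels' protocols. Tools named in the submitters' processing notes are featureCounts, STAR, fastp and DESeq2, with GRCm38 and mm10 as builds. Counting settings and the annotation release: not given in the sources used here. Estimated counts without depth scaling are one of 3 deposited units, per the file headers. The others are TPM scaled by the authors to a fixed total, and FPKM scaled by the authors for length and depth. Counts were rounded before testing, as 13.91% of those above 0 differed from a whole number by more than 1e-06. The 7SL RNA genes Rn7s1 and Rn7s2 took 40.34% to 53.1% of TPM. Diet came from the titles and batch from the batch field; libraries are numbered in accession order.

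The 31 carriers and all lists were chosen with earlier results of these data known. Genes passing filterByExpr by diet (minimum count 10) were scaled with TMM and tested in R 4.3.3 with edgeR 4.0.16 (glmQLFit, robust, terms for batch and diet; glmQLFTest, two-sided), with Benjamini-Hochberg adjustment over 17890 genes and a threshold of 0.05. Standard errors are the fold change over the square root of F. Alternatives were DESeq2 1.42.0, limma-voom 3.58.1 with quality weights, limma on log2(TPM + 1), other scalings and filters, each batch alone and each library left out. The steps were tested on simulated counts, with each gene drawn independently. This could not show how the steps act on genes that go up and down together, as most carriers did. All 66 pairs of libraries differed by at least 6.841 times the counting noise, so none was taken as a duplicate. Each library held 16310197 counts or more, but this depth does not make counting error small for every carrier. Slc26a6 had 141 to 301 counts per library and Slc22a7 had 29 to 1086. The share of counting error in their spread was not tested.

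All 31 carriers are described. Full values are given for those with an unadjusted p under 0.05, the 3 highest and 3 lowest by FPKM, and the widest and narrowest spread; others shown in full, and the ratios, were chosen after their values were seen. Of each other list the 2 genes with the smallest p are named, except some whose results are not reported here; Lrp2, Fgb, Cyp3a11, Hnf4a and Cltrn were added later. Gene positions are from GENCODE M21 on GRCm38, and promoters from RefSeq on GRCm38.p6.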

Additional observations from a re-analysis of the deposited data

Results flagged for a closer look

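In 4 of 62 groups of 6 libraries, a carrier had a library far from the others of its diet, where chance would give about 1 in 20, or 3.1. In all 4 the library was fisetin 6, as the highest fisetin value. Slc6a19 had 343.3 CPM there, with the next fisetin library at 160.4 CPM. Slc22a19 had 31.6 CPM, with the next at 14.3 CPM. Slc7a7 had 132.4 CPM, with the next at 79.0 CPM. Slco4c1 had 26.2 CPM, with the next at 16.5 CPM. Fisetin 6 also had the smallest immune marker sum, 449.6 CPM; its part in these values was not tested.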

How the results depend on the processing

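The carriers' median log2 fold change was negative under all 22 alternatives, from -0.41 without fisetin 6 to -0.16 without fisetin 1, and it was -0.17 without fisetin 5. The count of all genes called, 0 by edgeR (2608 at an unadjusted p under 0.05), was 154 by DESeq2, 2492 by limma-voom with quality weights, 1 in batch 1 alone and 0 to 70 with a library left out (70 without fisetin 6, 1 without fisetin 4). Carriers called, 0 by edgeR, were 1 by DESeq2, 14 by limma-voom and 0 to 1 with a library left out (1 without fisetin 6). Carriers with an unadjusted p under 0.05, 8 by edgeR, were 1 in batch 2 alone, 24 by limma-voom and 5 to 18 with a library left out (5 without control 3 or control 4, 18 without fisetin 6). Of all genes, limma-voom put 6223 at that level. Shares of all genes at that level by batch or with a library left out are not given here. The interaction had 0 genes called by edgeR (376 at an unadjusted p under 0.05) and 1 by DESeq2. The batch term had 0 by edgeR, DESeq2 and limma-voom (604 at an unadjusted p under 0.05 by edgeR). The cause of these differences was not tested. Slc26a6, Slc26a1, Slc5a10, Slc6a18 and Slc22a13 had an unadjusted p under 0.05 in all 12 fits that left out a library, Slco4c1 in 10, Slc22a8 in 9 and Slc7a9 in 5.

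Signs turned for 5 carriers, none called. In batch 1 alone Slc22a6 was at 0.0518, Slc4a4 at 0.097 and Slc5a8 at 0.0422. In batch 2 alone Slc13a3 was at -0.0257 and Slc6a19 at 0.129. Slc13a3 was at -0.0164 by limma-voom. Slc4a4 was at 0.0495 on log2(TPM + 1), 0.0027 with a mean count of at least 50 and 0.041 with total count scaling. With a library left out Slc13a3 ran from -0.0194 to 0.109, Slc6a19 from -0.48 to 0.0722 and Slc4a4 from -0.0336 to 0.0337. Of the single-carrier values under alternatives, 646 kept direction and side of the threshold, 20 turned and 16 passed it. Total count scaling moved the median of all genes by 0.05 and TPM by 0.06. No paired analysis was possible because library numbers are in accession order and pair nothing.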
